A study of Rattus norvegicus with 252 samples.

Results

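The cerebellum of wild type (WT) Long Evans rats was compared between 2 and 6 months of age in 20 RNA-seq libraries, 10 at each age, chosen by their labelled genotype, tissue and age from the 252 libraries of the series. Each age held 5 females and 5 males, and each library came from a different animal, so the p-values measure the spread between animals. The animals carried no transgene and received no treatment that the labels name. The series as a whole profiled striatum, cortex, hippocampus and cerebellum of 60 animals, either WT or carriers of 1 copy of the Q130 knock-in allele, a Huntington's disease model called Q130 here, at ages of 2, 6 and 12 months. The comparisons used 2 further sets: the cerebella of 20 heterozygous Q130 rats of 2 and 6 months, and 54 libraries of cortex, hippocampus and striatum from the same WT rats. Q130 libraries of the forebrain tissues at these ages served only, with the Q130 cerebella, to choose groups of genes by tissue.

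The cerebellum coordinates movement and motor learning. Its neurons are mostly small granule cells, whose parallel fibres drive the Purkinje cells, the output neurons of its cortex, while Bergmann glia and other astrocytes, oligodendrocytes and microglia make up the rest. Most cerebellar neurons are formed and wired in the first weeks after birth, and the rat is a sexually mature young adult at 2 months, so the comparison lies within adult life. Because whole pieces of tissue were sequenced, fewer cells of a type and less RNA per cell cannot be told apart in any of the values that follow.

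The deposited tables name genes by Ensembl identifier only, and none of the 32883 identifiers could be paired with a gene symbol from the reference table at hand. Genes are therefore given as identifiers, with no statement of their function, and described in groups by where in the brain they were most abundant, by level and by length. Levels are in CPM, a gene's reads relative to the scaled total of its library, or, where genes of different length are compared, in TPM, which also allows for the length of the transcripts.

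The 20 libraries were alike in depth and correlation, though 6-month male 5 differed from the rest in ways given below. They held 33.4 to 38.3 M counts at 2 months and 28.3 to 41.0 M at 6 months, with 17900 to 18471 genes detected in each. Each library's median correlation with the other cerebellar libraries of the series, of both genotypes and all ages, was 0.984 or higher. It was lowest in 6-month male 5. The 281 genes enriched in the cerebellum of Q130 rats had a mean of 4.26 to 4.45 log2 CPM in these 20 libraries, against -0.03 to 0.90 in the 54 WT libraries of the other tissues, so the tissue label held in each. The 1 gene found only in male Q130 cerebellum was at 6.97 to 9.74 CPM in the WT males and at 0.0317 CPM or less in the WT females. Of the comparison libraries, 3 had a median correlation with their tissue under 0.97 and stood apart. They were Q130 cerebellum 2 months males 1 and 2, and WT cortex 6 months male 4. The main counts of called genes that rest on these are given with and without them. The Q130 libraries that chose the groups by tissue also included hippocampus 6 months males 3 and 5 and striatum 6 months male 1. Their correlations were 0.962, 0.933 and 0.938. These groups were not chosen again without the libraries that stood apart. The animal identifiers have a first part, whose meaning the labels do not give. It was never shared between the ages, nor between females and males. The WT cerebella came from 5 such parts at 2 months and 7 at 6 months. WT and Q130 rats shared 5 such parts at 2 months and 1 at 6 months. Neither age nor sex can therefore be told apart from what that part stands for. Among the WT cerebella of an age, libraries that shared a part had a fitted correlation of -0.07 (limma-voom).

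Age and sex both marked the leading axes of difference among the WT cerebella. The first principal component of log2 CPM carried 15.9% of the variance, of which age accounted for 59.0% and sex for 25.9%. On this component 6-month male 5 lay at -11.0 and 6-month male 4 at 0.697, within the 2-month range of -21.4 to 0.827. The second component carried 11.4%, of which sex accounted for 66.0% and age for 28.4%. Of 15550 genes tested with edgeR's quasi-likelihood test with sex as a covariate, 1327 rose (8.53%) and 1649 fell (10.6%) between 2 and 6 months at a Benjamini-Hochberg adjusted p under 0.05, 2976 in all (19.1%). More genes fell than rose in 33 of 35 alternative fits, but not without 6-month male 5 (1944 rose, 1849 fell) or without the 3 libraries highest on the third component, a choice made after seeing the data (1958 rose, 1761 fell). The same fit as above called 33 genes by sex.

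Most of these differences were small. The median log2 fold change was 0.21 for the genes that rose and -0.24 for those that fell, while the median over all genes tested was 0.00. Of the called genes, 856 that rose and 889 that fell did so by less than 1.2-fold, and 369 and 552 by 1.2- to 1.5-fold. Differences of 1.5- to 2-fold were found in 74 genes that rose and 170 that fell, and differences beyond 2-fold in 28 and 38. Of the 310 genes beyond 1.5-fold, 208 were lower at 6 months. These genes were mostly of low level, with a median of 1.29 TPM for those that rose and 1.57 TPM for those that fell by more than 1.5-fold, against 18.9 TPM over all genes tested.

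**Figure D1:**
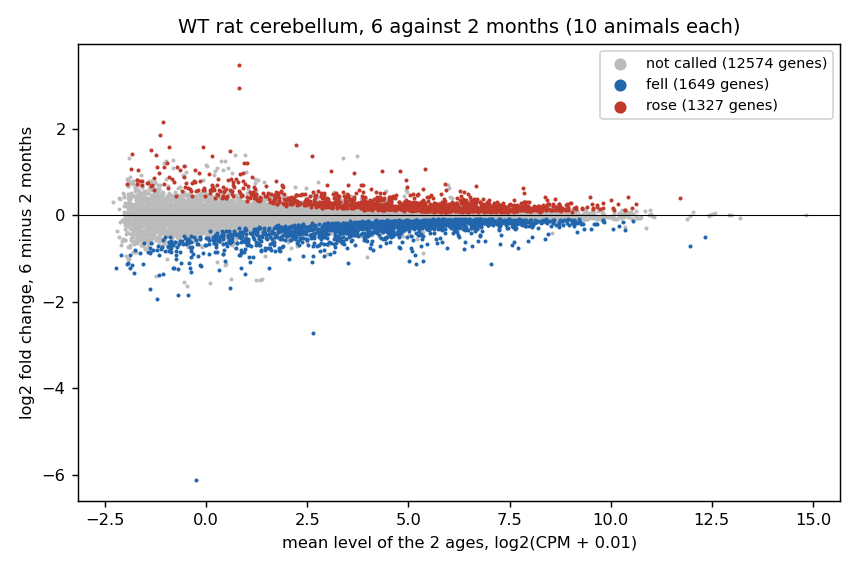
Log2 fold change of each of the 15550 genes tested (vertical axis, 6 minus 2 months) against its mean level at the 2 ages (horizontal axis, log2 of CPM plus 0.01). Red points are the 1327 genes that rose and blue points the 1649 that fell; most lie within 1.5-fold of 0, and the isolated point at the bottom is a gene with counts of 0 in several libraries of both ages.

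The replicate number also set how small a difference could be bounded. Of the 13826 genes with a mean of at least 1 CPM, 12824 (92.8%) had a 95% confidence interval that lay wholly within 1.5-fold in either direction. In 47 genes the interval lay wholly beyond 1.5-fold, 16 of them higher and 31 lower at 6 months. In single animals, all 10 values at 6 months lay above all 10 at 2 months in 63 genes and below them in 168, together 231 genes (1.49% of those tested), all of them called.

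Seen as a share of the transcriptome, the genes that rose made up 6.58% of all TPM at 2 months and 7.57% at 6 months. Those that fell went from 12.2% to 10.6%. Among the 100 most abundant genes by TPM, 6 rose and 11 fell, shares near those of all genes tested (8.53% and 10.6%). Variation between animals of the same sex was of like size at both ages, with a median SD of 0.12 log2 CPM at 2 months and 0.12 at 6 months over the genes of at least 1 CPM. The SD was larger at 6 months in 56.3% of these genes, and in 45.4% when 6-month male 5 was left out.

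Among called genes with a mean of at least 1 CPM over both ages, the 2 with the largest and the 2 with the smallest fold change were followed animal by animal. ENSRNOG00000054834, ENSRNOG00000009372 and ENSRNOG00000043219 reached that mean only through the age at which they were higher. The genes were picked as extremes, so their fold changes and p-values are no independent support. ENSRNOG00000054834 was nearly silent at 2 months, where its lowest, median and highest values were 0.115, 0.252 and 0.595 CPM, and stood at 1.28, 3.44 and 4.20 CPM at 6 months. The ages did not overlap, and the lowest animal at 6 months (male 5) was still above the highest at 2 months. These levels rest on 4 to 20 counts per library at 2 months and 44 to 160 at 6 months. The mean rose from 0.282 ± 0.153 to 3.20 ± 0.858 CPM (SD, n = 10 each), 11.3-fold, and edgeR fitted a log2 fold change of 3.49 with an SE of 0.24 and an adjusted p of 2.25e-10. In TPM the gene went from 0.250 to 2.87. The log2 fold change with its SE was 3.51 ± 0.28 in females and 3.46 ± 0.35 in males, with 5 animals of each sex and age.

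ENSRNOG00000001159 moved the other way. Its lowest, median and highest values were 8.53, 10.95 and 13.9 CPM at 2 months and 1.10, 1.48 and 2.89 CPM at 6 months, again with no overlap between the ages. The mean fell from 10.9 ± 1.68 to 1.66 ± 0.534 CPM (SD, n = 10 each), which is 6.53-fold lower. The log2 fold change fitted by edgeR was -2.71, its SE 0.12 and its adjusted p 8.03e-14. On the TPM scale it went from 47.9 to 7.38, so that at 2 months it was among the genes above the median level of 18.9 TPM. Females and males gave -2.68 ± 0.16 and -2.73 ± 0.17.

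ENSRNOG00000043219 fell less steeply. Its lowest, median and highest values were 1.81, 2.24 and 3.30 CPM at 2 months and 0.378, 0.667 and 1.11 CPM at 6 months. Here too the highest animal at 6 months was below the lowest at 2 months. The mean went from 2.29 ± 0.445 to 0.704 ± 0.195 CPM (SD, n = 10 each), 3.25-fold lower, and edgeR put the log2 fold change at -1.69 with an SE of 0.15 (adjusted p = 3.17e-08). The log2 fold change was -1.76 ± 0.19 in females and -1.61 ± 0.25 in males.

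ENSRNOG00000009372 rested on 2 animals. Its values at 2 months were 0.258, 0.375 and 0.580 CPM (lowest, median, highest), and at 6 months 0.204, 0.422 and 14.1 CPM. Only 6-month female 2 (14.1 CPM) and male 2 (13.5 CPM) were high, and the other 8 animals of that age lay between 0.204 and 0.517 CPM. The mean of 3.07 ± 5.67 CPM at 6 months against 0.395 ± 0.118 CPM at 2 months (SD, n = 10 each) gave an edgeR estimate of 2.96 on the log2 scale, with an SE of 0.93 and an adjusted p of 0.0338. Without female 2 it was 1.74 (edgeR adjusted p = 0.176), without male 2 it was 1.82 (adjusted p = 0.144), and limma-voom gave 1.01 (adjusted p = 0.351). It was the only 1 of the 15550 genes at which both these libraries lay at least 2 times above each of the other 18.

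The same gene was plentiful in the forebrain, at 14.9 ± 2.06 CPM in cortex at 2 months and 13.4 ± 3.76 at 6 months, 7.56 ± 1.27 and 5.57 ± 1.13 in hippocampus, and 3.17 ± 0.679 and 2.39 ± 0.642 in striatum (SD, n = 10 per age, 7 in striatum). In cortex at 6 months the library that stood apart had 2.93 CPM, and the other 9 had 14.5 ± 0.863 CPM. The gene belongs to a group of 337 tested genes that were at least 2 log2 units lower in cerebellum than in each forebrain tissue of Q130 rats. The other 336 had a mean of 1.34 log2 CPM in cerebellar female 2 and 1.46 in male 2, against 1.27 to 1.79 in the other 8 cerebella of 6 months. Of these genes, 3 were higher in both these libraries than in each of the other 18. The same count over all genes tested was not taken, so these 3 are no result about the group. The part of forebrain tissue in these 2 libraries was not tested.

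**Figure D2:**
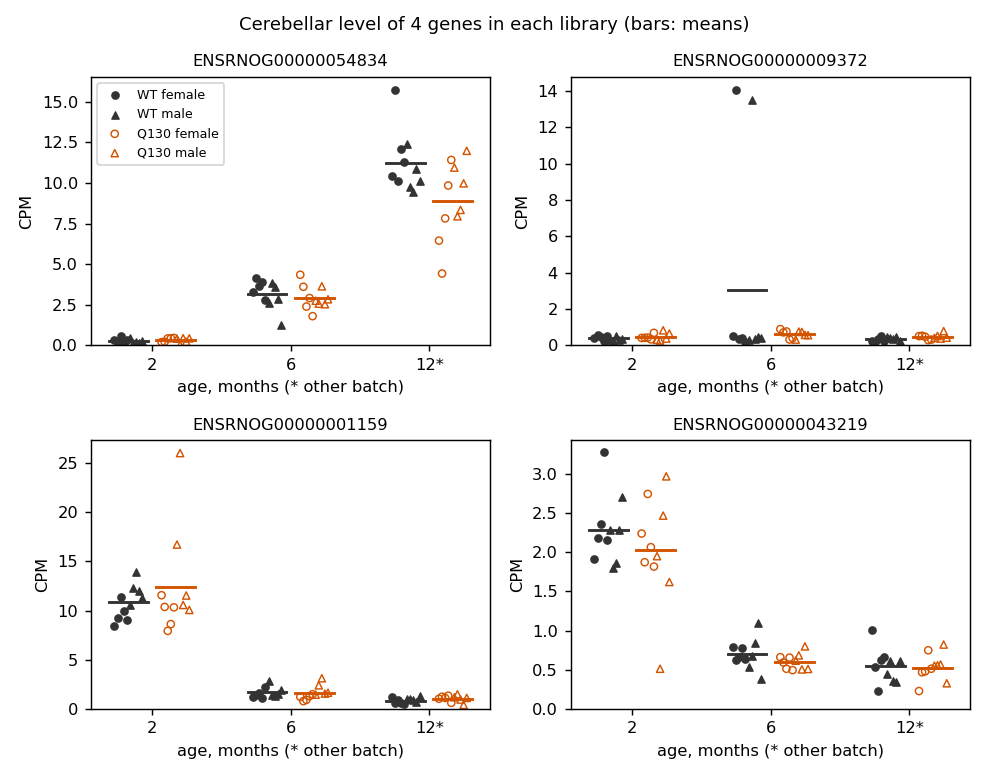
CPM of 4 genes (vertical axes) in each cerebellar library by age in months (horizontal axes), with filled black symbols for WT, open orange symbols for Q130, circles for females, triangles for males and bars for the mean of 10 animals. ENSRNOG00000054834 rises and ENSRNOG00000001159 and ENSRNOG00000043219 fall between 2 and 6 months in both genotypes, while ENSRNOG00000009372 is high in 2 WT animals of 6 months only; the 12-month libraries belong to another batch.

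The lowest fitted fold change of all belonged to a gene below 1 CPM, singled out after its values were seen. It had 29 to 179 counts in 7 of the 10 WT cerebella of 2 months and 0 in the other 3, and 0 counts in 8 of the 10 of 6 months with at most 5 in the others. Its log2 fold change as fitted by edgeR, -6.12 with an SE of 1.11 and an adjusted p of 0.000842, depends on the prior count and is no bound. A like mix of 0 and high counts was present within single ages elsewhere: 5 of 10 Q130 cerebella were at 0 at both 2 and 6 months, with up to 140 and 86 counts in the others, and 4 of 10 WT cortices of 2 months were at 0 with up to 80 counts in the others. In all, 9 called genes had 0 counts in at least 1 of the 20 libraries, 3 that rose and 6 that fell.

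Genes enriched in a tissue were chosen on Q130 libraries of 2 and 6 months as those at least 2 log2 units above each of the other 3 tissues, and their WT values were then read. Of the 281 cerebellum-enriched genes, all of which were tested, 35 rose (12.5%) and 49 fell (17.4%), against 8.53% and 10.6% of all genes tested. Their median log2 fold change was -0.02, with a range from -2.71 to 1.38, beside 0.00 for all genes. ENSRNOG00000001159, at 0.0539 CPM or less on average in each forebrain tissue, marks the low end of that range. The mean over the group was 4.51 ± 0.03 log2 CPM at 2 months and 4.47 ± 0.06 at 6 months (SD, n = 10 each). These means rest on the WT cerebella scaled alone, unlike the values set against the other tissues earlier. The summed level of the group ranged from 28786 to 31488 CPM at 2 months and from 27458 to 30628 CPM at 6 months, so the ages overlapped.

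Genes typical of the other tissues were present in the cerebellum at low levels. Of 56 cortex-enriched genes, 32 passed the filter on low counts in cerebellum, of which 1 rose (3.13%) and 7 fell (21.9%), against 8.53% and 10.6% of all genes tested, with a median log2 fold change of -0.15. Their mean level went from 0.47 ± 0.14 to 0.21 ± 0.16 log2 CPM (SD, n = 10 each), and their summed level from 110 to 134 CPM at 2 months to 99.7 to 128 CPM at 6 months. Of 45 hippocampus-enriched genes, 24 were tested, 2 rose (8.33%) and 1 fell (4.17%). Of 84 striatum-enriched genes, 53 were tested, 4 rose (7.55%) and 2 fell (3.77%). The wider group of genes lower in cerebellum than in each forebrain tissue had 28 that rose (8.31%) and 29 that fell (8.61%) of 337 tested, near the shares over all genes, with a median of -0.01 and summed levels of 3455 to 4020 CPM at 2 months and 3490 to 4099 CPM at 6 months. That group was added after the data had been seen.

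Across the whole range of cerebellar enrichment the called genes were spread widely. Of the 515 genes at least 2 log2 units higher in cerebellum than in the mean of the other tissues, 11.3% rose and 15.7% fell. Of the 606 genes at least 2 units lower, 10.1% rose and 9.90% fell. In the 2 middle classes, within 0.5 units of equal level, 6.75% and 8.22% rose and 11.03% and 8.72% fell. The enrichment was again read from the Q130 libraries.

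The genes that rose had, at the median, longer transcripts than those that fell. The ratio of deposited counts to TPM gives each gene's relative length, which is that of its transcripts and not of the gene in the genome. Its median was 1.39 for genes that rose and 1.01 for genes that fell when the median of all genes tested is set to 1. In 5 classes of 3110 genes each, from the shortest to the longest, 3.09%, 5.11%, 8.26%, 10.03% and 16.2% rose, while 10%, 11.03%, 10.5%, 11.1% and 10.4% fell. The median log2 fold change moved from -0.03 in the shortest to 0.04 in the longest class. In 5 classes by TPM, the share that rose was between 5.14% in the lowest and 10.7% in class 4, and the share that fell was highest, at 13.7%, in the most abundant class.

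A dependence on length was also visible between libraries of 1 age. The slope of a library's log2 values against log2 length, relative to the mean library, was -0.0507, -0.0071 and 0.0289 (lowest, median, highest) at 2 months and -0.0614, 0.0217 and 0.0363 at 6 months. The ages overlapped, and 6-month male 5 had the lowest slope of all 20. Without that animal 815 genes of the longest class rose in place of 503, and 3793 genes were called in all. With each library's slope as a covariate, added after the data had been seen, 2432 genes were called. In that fit 5.31% of the shortest and 9.55% of the longest class rose, and 5.50% and 10.997% fell, so that the share that fell was no longer flat with length. In the fit over 40 cerebellar libraries 1.32% of the shortest and 5.53% of the longest class rose, and 3.50% and 6.59% fell. Females alone had 0.896% and 6.27% that rose, with 2.72% and 3.39% that fell, and males alone 0.827% and 3.24%, with 1.92% and 3.59%. The part of library preparation or RNA quality in the length dependence was not tested.

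**Figure D3:**
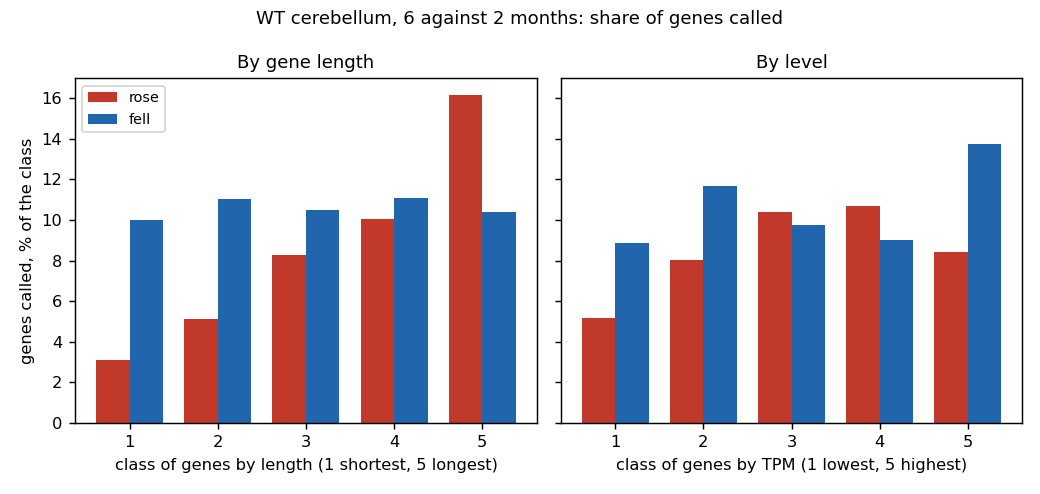
Percent of genes called higher (red) and lower (blue) at 6 months in each class of 3110 genes (horizontal axes). Classes are by relative transcript length (headed gene length), left, and by TPM, right. Bars start at 0. The share that rose goes from 3.09% to 16.2% with length, while the share that fell stays between 10% and 11.1% in this fit.

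The age difference was seen in both sexes. Fitted apart, with 5 animals per age, females gave 393 genes that rose and 518 that fell, and males 316 and 458, among the 15218 genes tested in both (5.95% of genes tested called in females, 5.07% in males). The genes called in both numbered 409, all with the same sign, which is 44.9% of those called in females and 52.8% of those called in males. Of the genes called in females, 98.5% had the same sign in males, and 98.2% of those called in males had it in females, beside 73.1% of all genes. Genes called in females had a median absolute log2 fold change of 0.35 in females and 0.30 in males. Those called in males had 0.37 in males and 0.28 in females.

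No gene passed the test of the difference between the sexes. Of 15729 genes, edgeR called 0 (0%) for an interaction of age and sex, while 443 had a raw p under 0.05, and 0 passed with limma-voom. For the 4 named genes the edgeR adjusted p of the interaction was 0.9998. The genes with a raw p under 0.05 were 2.82% of those tested. With 5 animals per sex and age, the 0 calls do not show that the sexes aged alike.

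**Figure D4:**
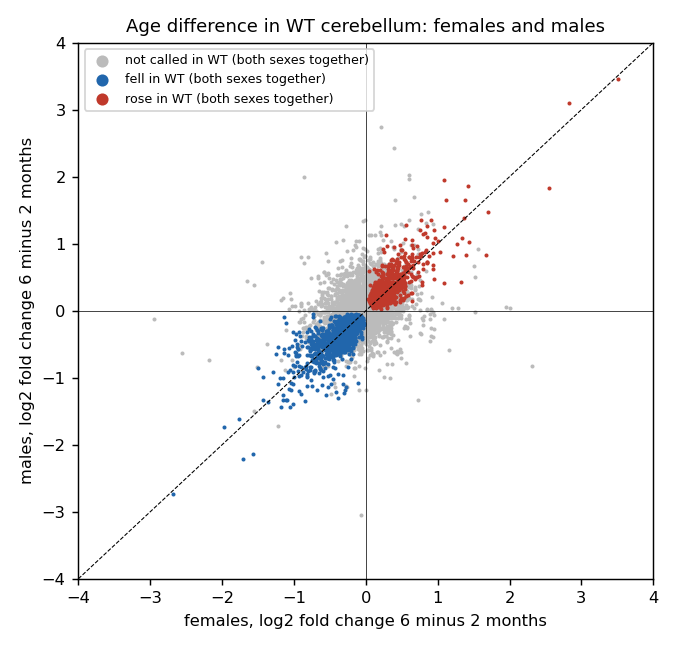
Log2 fold change from 2 to 6 months in males (vertical axis) against that in females (horizontal axis) for 15218 genes of WT cerebellum, coloured by the call with both sexes together, which used the same animals; the dashed line marks equality. Called genes lie along the line in the lower left and upper right, with no gene called in opposite directions in the 2 sexes.

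The 20 cerebella of the heterozygous Q130 rats, which share no library with the WT set, gave the same direction for most of the genes called in WT. Of 2970 that could be tested there, 2614 (88.0%) had the same sign, beside 67.5% of all genes. The median Q130 log2 fold change was 0.15 for the genes that rose in WT and -0.17 for those that fell, against 0.21 and -0.24 in WT itself, where the genes were chosen. In the Q130 rats 390 genes rose (2.5% of 15599) and 644 fell (4.13%), together 6.63%. The genes called in both genotypes with the same sign numbered 674, or 22.7% of the WT and 65.3% of the Q130 calls, and 0 were called with opposite signs.

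Genes with larger WT differences were followed in the same way. Of the 304 genes beyond 1.5-fold in WT that were tested in Q130, 282 had the same sign and 149 were called, and of the 62 beyond 2-fold, 56 and 35. All 231 genes with no overlap between the ages in WT were tested in Q130, where 227 had the same sign and 170 were called. The count depended on the 2 Q130 libraries that stood apart. Without them 2378 Q130 genes were called, of which 1128 were shared with WT in the same direction (37.9% of the WT and 47.7% of the Q130 calls), 2 were called in opposite directions, and 84.6% of the WT calls had the same sign. The median Q130 log2 fold change was then 0.10 for the WT genes that rose and -0.15 for those that fell. Of the 307 genes beyond 1.5-fold, 283 had the same sign and 178 were called, and of the 231 with no overlap 229 and 205.

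The 3 genes whose ages did not overlap in WT moved in the same direction in Q130. For ENSRNOG00000054834 edgeR gave 3.14 ± 0.25 (log2 fold change and SE, adjusted p = 8.48e-08), with 0.332 ± 0.149 CPM at 2 months and 2.94 ± 0.736 CPM at 6 months (SD, n = 10 each). On the same scale ENSRNOG00000001159 was at -3.00 ± 0.19 (adjusted p = 1.26e-08) and ENSRNOG00000043219 at -1.75 ± 0.21 (adjusted p = 2.81e-05). Without the 2 libraries that stood apart the log2 fold changes of these genes were 3.03, -2.78 and -1.90. ENSRNOG00000009372, by contrast, had 0.36 ± 0.24 (adjusted p = 0.420), with values of 0.322 to 0.897 CPM at 6 months, so that none of the 10 Q130 animals showed the level of the 2 high WT animals.

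No gene passed the test of the difference between the genotypes. Of 15819 genes, edgeR called 0 (0%) for an interaction of age and genotype, while 1461 had a raw p under 0.05. The smallest adjusted p was 0.207, and 0 genes passed with limma-voom. Without the 2 Q130 libraries that stood apart the number called by edgeR remained 0, with a smallest adjusted p of 0.0890. In that fit 2674 genes had a raw p under 0.05. A count of 0 at this threshold does not show that the genotypes aged alike. For the 4 genes the adjusted p of the interaction was 0.831 for ENSRNOG00000054834, 0.378 for ENSRNOG00000009372, 0.788 for ENSRNOG00000001159 and 0.975 for ENSRNOG00000043219.

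**Figure D5:**
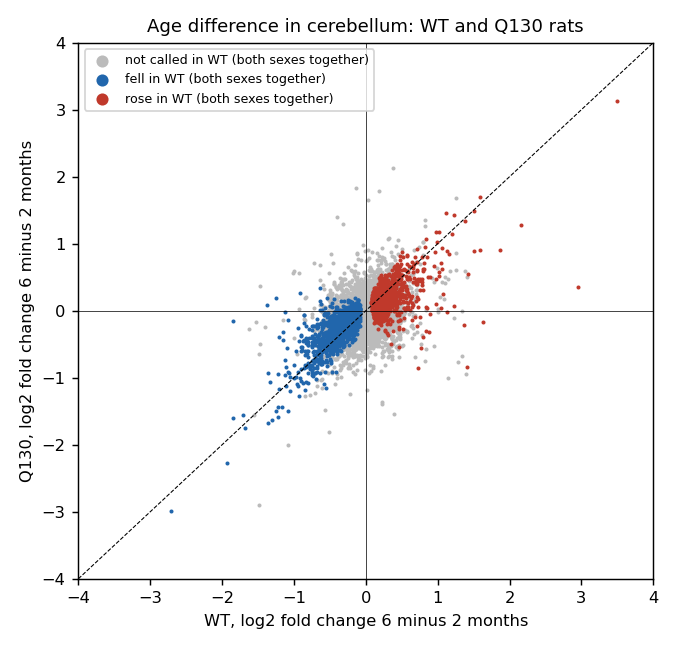
Log2 fold change from 2 to 6 months in Q130 cerebellum (vertical axis) against that in WT cerebellum (horizontal axis) for 15473 genes tested in both, coloured by the WT call; the dashed line marks equality. The WT calls lie mostly in the lower left and upper right, 88.0% with the same sign, and 1 red point at a WT value of 2.96 and a Q130 value of 0.36 is ENSRNOG00000009372.

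The cerebellum was then set against the forebrain of the same WT rats. Fitted alone, cortex gave 557 called genes of 15756 (3.54%), hippocampus 2679 of 15711 (17.1%) and striatum, with 7 libraries per age, 1723 of 15871 (10.9%). The cortex count depended on the 1 library that stood apart, and was 1680 without it. Because the tissues came from the same animals, calls shared between them are not independent. Genes called in the same direction in cerebellum and cortex numbered 279 (9.53% of the cerebellar and 51.8% of the cortical calls) and 9 had opposite directions. Without the cortex library that stood apart these became 730 (24.9% and 44.4%) and 25. For hippocampus 746 were shared (25.6% and 28.3%) and 88 were opposite, and for striatum 654 (22.4% and 38.5%) and 52.

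The difference itself was tested in 1 fit of 74 WT libraries with the animal as a block and an age effect for each tissue. In 1140 of 17120 genes (6.66%) the age difference in cerebellum differed from the mean of the 3 forebrain tissues at an edgeR adjusted p under 0.05, with 536 higher (3.13%) and 604 lower (3.53%) in cerebellum. Among the genes called in the fit of the 20 cerebella, 347 of the 1327 that rose (26.1%) rose more than in forebrain, and 351 of the 1649 that fell (21.3%) fell more. A further 6 genes that rose and 9 that fell differed in the direction against their cerebellar call. The other genes of the 1140 were not called in the fit of the 20 cerebella. The same 20 cerebella entered both fits, so the choice of genes favours the side of their cerebellar call. These shares are therefore no independent support. Without the cortex library that stood apart 2394 genes differed, and the shares became 48.5% and 35.1%, or 643 and 578 genes.

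The named genes, chosen for their fold change in the same cerebella, were read from the same fit. For ENSRNOG00000001159 the cerebellar fold change was lower than that of the forebrain by 2.07 ± 0.54 on the log2 scale (SE, edgeR adjusted p = 0.0123). Its forebrain levels were at most 0.0539 CPM on average, which is close to no counts. ENSRNOG00000043219 was at forebrain levels like those in cerebellum, and lower at 6 months in each tissue, with means of 2.54 and 1.48 CPM in cortex (log2 fold change -0.78, edgeR adjusted p = 0.0745), 1.09 and 0.696 in hippocampus (-0.65, adjusted p = 0.0482) and 1.39 and 0.723 in striatum (-0.95, adjusted p = 0.0114). In cortex the library that stood apart had 0.207 CPM and the other 9 of 6 months 1.24 to 1.82 CPM, and without it the log2 fold change was -0.65 (edgeR adjusted p = 0.00382). Its fall in cerebellum was larger by 0.89 ± 0.23 on the log2 scale (adjusted p = 0.0111).

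ENSRNOG00000054834 rose in hippocampus as well, where it went from 0.127 ± 0.083 CPM (SD, n = 10) to 0.351 ± 0.086 CPM (n = 10) and edgeR fitted 1.46 on the log2 scale (adjusted p = 0.00312). In cortex it went from a mean of 0.00596 to 0.132 CPM and was too low to be tested, and in striatum its means were 0.00468 and 0.00424 CPM. The difference between cerebellum and forebrain was 1.67 ± 0.99 (adjusted p = 0.320) and did not pass the test. For ENSRNOG00000009372 the difference was 2.34 ± 0.58 (adjusted p = 0.00773), which rests on the same 2 cerebellar libraries.

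The 12-month libraries were sequenced in another batch than those of 2 and 6 months, so age and batch cannot be told apart there, and their levels are given without a test. With all 60 cerebellar libraries scaled together, ENSRNOG00000054834 stood at 11.2 ± 1.85 CPM in WT rats of 12 months, and the Q130 rats of that age had 8.92 ± 2.37 CPM (SD, n = 10 each), above each 6-month animal of its genotype. For ENSRNOG00000001159 the 12-month level was 0.843 ± 0.270 CPM in the WT animals and 1.04 ± 0.326 CPM in the carriers. ENSRNOG00000043219 was at 0.543 ± 0.220 and 0.525 ± 0.175 CPM, overlapping the 6-month animals. ENSRNOG00000009372 was at 0.345 ± 0.112 CPM in WT at 12 months, with no animal above 0.523 CPM.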

How the data were processed

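RNA was sequenced from cerebellum of 10 WT rats at each age; labels gave each library's genotype, tissue, age, sex and batch. The authors deposited estimated counts per gene for 252 libraries, whole or fractional, which were rounded for the count tests. The authors also deposited a second gene table, named for FPKM, whose values were treated as TPM because each column has the constant sum of that unit; it served to compare genes of different length and, with the counts, to give each gene's relative length. What the authors did to make the TPM values, the aligner and the annotation included, is not stated per the labels or per the file headers. For 24 striatal columns of animals sequenced in both batches the names matched 2 samples each; they were not used, which left 74 of the planned 80 WT libraries in the forebrain fit.

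Genes passing edgeR 4.0.16's default filter on low counts were scaled by TMM and tested with its robust quasi-likelihood test (R 4.3.3), with sex as a covariate, or with the animal as a block across tissues; calls had a Benjamini-Hochberg adjusted p under 0.05, and SE is the log2 fold change over the square root of F. The test was checked on simulated data. Alternatives were limma 3.58.1 (voom), DESeq2 1.42.0, other scalings, filters and covariates, single sexes and leaving out each library. In 40 pairs of libraries of 1 age and sex the squared difference was, on average over genes, at least 6.13 times the counting variance. No pair therefore agreed within counting noise. That does not bear on repeat libraries of 1 animal.

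Named genes were to be the 2 with the largest and the 2 with the smallest log2 fold change among called genes. Their mean over the libraries of both ages had to be at least 1 CPM. Groups were to be those enriched by 2 log2 units in each tissue of Q130 rats. Lists of pathway and cell type genes by symbol were also planned, but could not be tested because 0 identifiers were paired with symbols. The comparison, rules and lists were chosen with earlier results of these data known. Intervals cover the spread between animals, with 10 per group, and counting error.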

Additional observations from a re-analysis of the deposited data

Results flagged for a closer look

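In groups of 10 libraries, the gap of the highest or lowest value to its neighbour was set against Dixon's 95% critical value of 0.466 in 38 groups, of which 4 exceeded it; chance gives about 1 in 20. ENSRNOG00000054834 had 1 WT female at 15.7 CPM at 12 months, above the other 9 animals. ENSRNOG00000009372 had 1 Q130 male at 0.788 CPM at 12 months. ENSRNOG00000001159 had 1 Q130 male at 26.0 CPM at 2 months (male 2, 1 of the 2 libraries that stood apart), where the median was 10.5 CPM. The slope of log2 values against transcript length was lowest, at -0.0614, in the library of WT 6-month male 5, against a median of 0.0217 for its group.

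The test of cerebellum against the forebrain tissues gave 1140 genes whose age difference differed. Among the named genes the difference in log2 fold change was 2.34 for ENSRNOG00000009372, -2.07 for ENSRNOG00000001159 and -0.89 for ENSRNOG00000043219. The first rests on 2 cerebellar libraries, and the second gene was too low to be tested for age in any forebrain tissue alone. Without the cortex library that stood apart these became 2.44, -1.84 and -0.92 (edgeR adjusted p = 0.00316, 0.0306 and 0.00147).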

How the results depend on the processing

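The 2976 calls became 1495 in 1 fit over all 40 cerebellar libraries, 913 in females only and 779 in males only, and stayed within 1.5 times under the 12 other alternatives (2432 to 3719), of which 2 were chosen after seeing the data. Leaving out 1 library each time gave 2506 to 3793 calls. With the replicate number as a block 2545 genes were called, 2411 of them shared; same-numbered libraries correlated at -0.13 to 0.03 and 0 of 10 best with their own number, so the numbers did not pair the samples. In Q130 cerebellum the 1034 calls became 625 with the replicate block and 2378 without the 2 libraries that stood apart. The 1140 genes that differed from forebrain became 2394 without the cortex library that stood apart, and 573 against striatum alone. Single sexes hold fewer animals; the cause of the other changes was not tested. ENSRNOG00000009372 lost its call in 8 of 20 fits that left out 1 library and in 6 of 13 other alternatives, over which its log2 fold change ranged from 0.96 to 3.32; the other 3 named genes kept theirs in each. The 4 named genes kept their direction in each alternative fit that tested them. Directions that reversed among the other called genes were not counted. Over the alternatives the median log2 fold change of the striatum-enriched genes ranged from -0.0051 to 0.101. That of the genes lower in cerebellum ranged from -0.0435 to 0.0336. The count that rose in the longest class, 503, moved by over 1.5 times in 5 of 15 alternatives, from 100 to 785. Depth limits genes under 1 CPM, such as the 4 to 20 counts behind ENSRNOG00000054834 at 2 months.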
